A study of Mus musculus with 10 samples.

Results

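Acute-phase transcripts were followed in mouse hearts as 7 genes, Saa3, Lcn2, Serpina3n, Hp, Orm1, Steap4 and Lrg1, chosen by symbol from the 31655 Ensembl gene IDs of a count table. All 7 symbols matched 1 ID each. The genes were picked with their levels in these same libraries in view, so their levels and their group comparison are given as a description and support nothing. The study profiled cardiac tissue by RNA sequencing in 10 libraries. The 5 libraries of the baicalin plus LPS group came from mice gavaged with baicalin, a flavone glucuronide of plants, at 100 mg/kg for 14 days and then injected once into the abdomen with 10 mg/kg of lipopolysaccharide (LPS). The 5 libraries of the LPS group came from mice given distilled water by gavage and the same LPS injection. All hearts were taken 72 hours after the injection, so both groups carry the LPS challenge, and a saline group that the design text names was not analysed here. The sources used here do not give strain, sex or age, and no label ties a library to a single mouse, so the spread between libraries may be in part technical.

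The acute-phase response is the change in secreted proteins that follows infection or injury. Cytokines of the interleukin 6 and interleukin 1 families switch it on, chiefly in the liver but also in other tissues, through the transcription factors STAT3, C/EBP and NF-kB. Lipopolysaccharide, a component of bacterial outer membranes, is a strong trigger. Of the 7 products, serum amyloid A3 (Saa3) is an inducible apolipoprotein made largely outside the liver, and lipocalin 2 (Lcn2) withholds iron from bacteria by binding their siderophores. Serpina3n is a serine protease inhibitor, haptoglobin (Hp) binds free haemoglobin, and Orm1 is an acid glycoprotein that carries small molecules in plasma. Lrg1 is a leucine-rich glycoprotein that modulates TGF-beta signalling in endothelium. Steap4 is a membrane metalloreductase for iron and copper, and so is not a secreted protein.

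The 5 promoters held in the RefSeq table for GRCm38.p6, those of Saa3, Lcn2, Serpina3n, Steap4 and Lrg1, were searched on both strands over the 250 bases before the transcription start that RefSeq gives. The motifs were TTCNNNGAA for STAT factors, TTNNGCAA for C/EBP factors and the NF-kB consensus. Of 32841 promoters, 7.02% held the STAT motif, 9.57% the C/EBP motif and 7.25% the NF-kB consensus. Steap4 held 1 STAT match, 1 C/EBP match and 2 NF-kB matches, Saa3 and Lcn2 held 1 C/EBP match each, and Serpina3n and Lrg1 held none of the 3. The Lcn2 window lies inside the gene as GENCODE annotates it, with 197 of its 250 bases exonic, so its match is not upstream of that annotated start. A match is a run of letters and not a shown binding site. The windows of 3 members that differ in matches and in level are printed here 5′ to 3′ on the gene's own strand, cut before the first annotated exon base, with matches in capitals. They lie at chr5:7960222-7960456 (plus strand), chr7:46715701-46715926 (minus strand) and chr12:104406458-104406707 (plus strand).
Steap4: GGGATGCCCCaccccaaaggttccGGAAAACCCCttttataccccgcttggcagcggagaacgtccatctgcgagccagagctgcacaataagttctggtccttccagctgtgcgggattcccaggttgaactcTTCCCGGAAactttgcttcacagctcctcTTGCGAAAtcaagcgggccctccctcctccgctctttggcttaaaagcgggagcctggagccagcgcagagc
Saa3: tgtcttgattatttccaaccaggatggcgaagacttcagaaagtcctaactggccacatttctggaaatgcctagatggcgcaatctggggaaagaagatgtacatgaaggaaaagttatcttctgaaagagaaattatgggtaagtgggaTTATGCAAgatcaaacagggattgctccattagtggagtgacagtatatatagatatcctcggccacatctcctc
Serpina3n: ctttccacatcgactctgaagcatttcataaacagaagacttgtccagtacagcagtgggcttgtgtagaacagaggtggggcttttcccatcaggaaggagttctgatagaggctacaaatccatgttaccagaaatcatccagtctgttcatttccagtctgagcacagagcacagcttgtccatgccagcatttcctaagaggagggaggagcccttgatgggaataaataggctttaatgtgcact

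On GRCm38, the assembly also called mm10, the 7 genes lie on 7 chromosomes and none overlaps another annotated gene. Saa3 (ENSMUSG00000040026) spans 46711998 to 46715700 of chromosome 7, Lcn2 (ENSMUSG00000026822) 32384633 to 32388252 of chromosome 2, and Serpina3n (ENSMUSG00000021091) 104406729 to 104414329 of chromosome 12. Hp (ENSMUSG00000031722) spans 109575128 to 109579172 of chromosome 8, Orm1 (ENSMUSG00000039196) 63344560 to 63348163 of chromosome 4, Steap4 (ENSMUSG00000012428) 7960457 to 7982213 of chromosome 5, and Lrg1 (ENSMUSG00000037095) 56119678 to 56122001 of chromosome 17. Of the 50-base windows of their annotated transcripts, 20.4% of those of Orm1 were also found in Orm2 or Orm3, 6.90% of those of Serpina3n in other genes, led by Serpina3 copies, and 4.15% of those of Saa3 in other genes. Lcn2, Hp, Steap4 and Lrg1 shared 0.0%. Reads of Orm1 could therefore be split with its copies, since the handling of reads with several matches is not given.

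Library totals ran from 39.4 to 59.6 M counts in the baicalin plus LPS group and from 43.1 to 75.7 M in the LPS group. Heart muscle markers were abundant in every library: the 8 cardiomyocyte markers summed to between 34688 and 45362 CPM, counts scaled to a common library size, with baicalin and between 30383 and 62728 CPM with LPS alone. LPS libraries 1, 2 and 3 stood apart. They were the lowest 3 of the 10 libraries for 9.61% of the 16850 genes tested and the highest 3 for 9.55%, and LPS library 4 was the highest of all for 24.3%. The labels give all 5 LPS libraries the same treatment. Whether the labels of LPS libraries 1, 2 and 3 match what those mice received was not tested, and every LPS mean, median and fold change given here takes them as labelled. Mitochondrial genes took 30.2% of the counts in LPS library 4 and between 36.5% and 44.1% in the other 9 libraries, and the part of this in the results was not tested.

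Serum amyloid Saa3 and the iron-withholding Lcn2 showed this split most clearly. Saa3 had 186, 72.6, 97.9, 125 and 134 CPM in libraries 1, 2, 3, 5 and 7 of the baicalin group, against 2.23, 1.32, 2.37, 365 and 232 CPM in LPS libraries 1 to 5. For Lcn2 the levels were 330.0, 135, 195, 795 and 306 CPM in those baicalin libraries, and 6.41, 5.45, 5.28, 1012 and 406 CPM in LPS libraries 1 to 5. In both genes every baicalin library lay between the 3 low and the highest LPS library, so the groups overlapped and the LPS group enclosed the other. The lowest of the other 7 libraries was 30.6 times the highest of LPS libraries 1 to 3 for Saa3, and 21.1 times for Lcn2.

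Serpina3n and haptoglobin followed the same order of groups at different heights. Serpina3n had 437, 234, 482, 642 and 277 CPM in libraries 1, 2, 3, 5 and 7 of the baicalin group, against 14.7, 14.1, 11.4, 935 and 596 CPM in LPS libraries 1 to 5. Hp, at much lower levels, had 7.40, 9.04, 16.1, 6.57 and 5.41 CPM with baicalin, against 0.351, 0.345, 0.344, 71.0 and 18.6 CPM with LPS alone. The gap between the 3 low LPS libraries and the rest was 15.9-fold for Serpina3n and 15.4-fold for Hp. For Hp, LPS library 4 stood 3.81 times above the next library, whereas for Lcn2 it stood 1.27 times above it. The Hp values of LPS libraries 1, 2 and 3 rest on 20, 24 and 18 counts.

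Lrg1, the endothelial TGF-beta modulator, kept a clear level in the 3 low libraries. It had 131, 57.6, 63.1, 255 and 142 CPM in libraries 1, 2, 3, 5 and 7 of the baicalin group, against 30.1, 25.3, 32.8, 428 and 210.2 CPM in LPS libraries 1 to 5. The 3 low libraries were again below all others, but by 1.76-fold only.

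The membrane reductase Steap4 did not share the low level of LPS libraries 1, 2 and 3. Its values were 38.5, 54.3, 58.9, 29.6 and 39.2 CPM in libraries 1, 2, 3, 5 and 7 of the baicalin group, against 41.4, 39.6, 32.5, 168 and 47.5 CPM in LPS libraries 1 to 5. Only LPS library 4 stood out, 2.86 times above the next, and the other 9 libraries ran from 29.6 to 58.9 CPM. Steap4 is also the gene whose promoter window, printed above, held matches to all 3 motifs, which is a description and was not tied to its level.

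Orm1 was scarcely detected. It had 8, 28, 6, 5 and 2 counts in libraries 1, 2, 3, 5 and 7 of the baicalin group, against 0, 6, 2, 43 and 7 counts in LPS libraries 1 to 5. A count of 0 in LPS library 1 allows a level of up to 0.0526 CPM, the worth of 3 counts there, for counting error only. That bound takes counts as independent. Low counts here were mostly even, so the bound may be higher. Orm1 did not pass the filter on low counts, so 6 of the 7 genes entered the test, and a difference in Orm1 was not detectable at this depth.

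**Figure D1:**
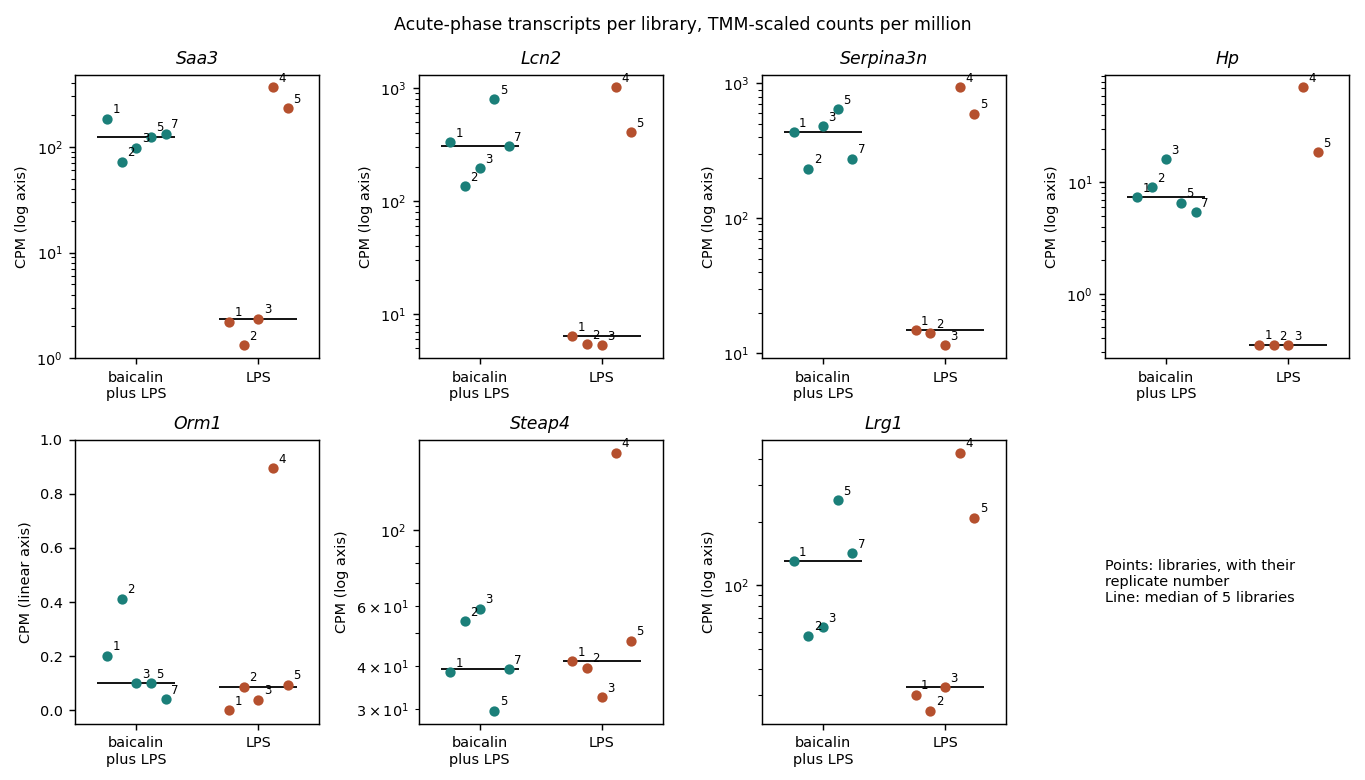
TMM-scaled CPM of each of the 7 genes (log axes, linear for Orm1) in the baicalin plus LPS libraries, left, and the LPS libraries, right. Points are libraries with their replicate numbers and lines are medians of 5. LPS libraries 1, 2 and 3 lie below all others for Saa3, Lcn2, Serpina3n, Hp and Lrg1, but not for Steap4 or Orm1, and LPS library 4 is the highest for all 7.

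Of the 6 tested genes, 5 had LPS libraries 1, 2 and 3 as the 3 lowest, against 9.61% of all tested genes, and all 6 had LPS library 4 as the highest, against 24.3%. These values were in view when the genes were chosen, so nothing is read from either count. Together the 7 genes took 0.114%, 0.0642%, 0.0997%, 0.164% and 0.0936% of the counts in libraries 1, 2, 3, 5 and 7 of the baicalin group, against 0.00876%, 0.00792%, 0.00738%, 0.332% and 0.16% in LPS libraries 1 to 5. The means, 0.107% ± 0.0366 with baicalin and 0.103% ± 0.144 with LPS alone (SD, n = 5 each), nearly coincide while the LPS spread exceeds its own mean.

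The spread within a group was therefore far wider with LPS alone. On the log2 CPM scale the SD of Saa3 was 0.51 in the baicalin plus LPS group and 3.98 in the LPS group, that of Lcn2 0.96 and 3.76, and that of Hp 0.60 and 3.66 (n = 5 each). The median SD over the 16850 tested genes was 0.28 with baicalin and 0.33 with LPS alone. In the LPS group, 0.00593% of tested genes had a larger SD than Saa3, and 7.77% had a larger SD than Steap4, the least variable of the 7. In the baicalin plus LPS group 24.2% of tested genes had a larger SD than Saa3 and 33.7% a larger SD than Steap4.

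Per gene length, in FPKM, the count scaled by gene length and library total, Serpina3n had the highest median level with baicalin, 213 FPKM, followed by Lcn2 with 121, Lrg1 with 93.2, Saa3 with 42.5, Steap4 with 12.9, Hp with 4.63 and Orm1 with 0.139 FPKM. The FPKM ranges of Lcn2 (58.9 to 268) and Lrg1 (46.7 to 160) overlapped, as did those of Lrg1 and Saa3 (31.8 to 71.6), whereas Saa3 lay above Steap4 (8.31 to 20.4) in every library. In the LPS group the order of medians was different. Lrg1 led with 20.3 FPKM and Steap4 followed with 12.1, ahead of Serpina3n with 6.57, Lcn2 with 2.25, Saa3 with 0.794, Hp with 0.201 and Orm1 with 0.102 FPKM. In LPS library 4 alone the order was that of the baicalin medians, with Serpina3n at 505, Lcn2 at 430, Lrg1 at 339, Saa3 at 156, Steap4 at 59.5, Hp at 49.2 and Orm1 at 1.29 FPKM.

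The baicalin plus LPS libraries also differed among themselves, and not in one order for all genes. Library 5 was the highest of the 5 for Lcn2, Serpina3n and Lrg1 but the lowest for Steap4 and the second lowest for Hp. Library 3 was the highest for Hp and Steap4. Library 2 was the lowest for Saa3, Lcn2, Serpina3n and Lrg1 and the highest for Orm1. From lowest to highest library the ratio was 5.87 for Lcn2, 4.43 for Lrg1, 2.97 for Hp, 2.75 for Serpina3n, 2.56 for Saa3 and 1.99 for Steap4.

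**Figure D2:**
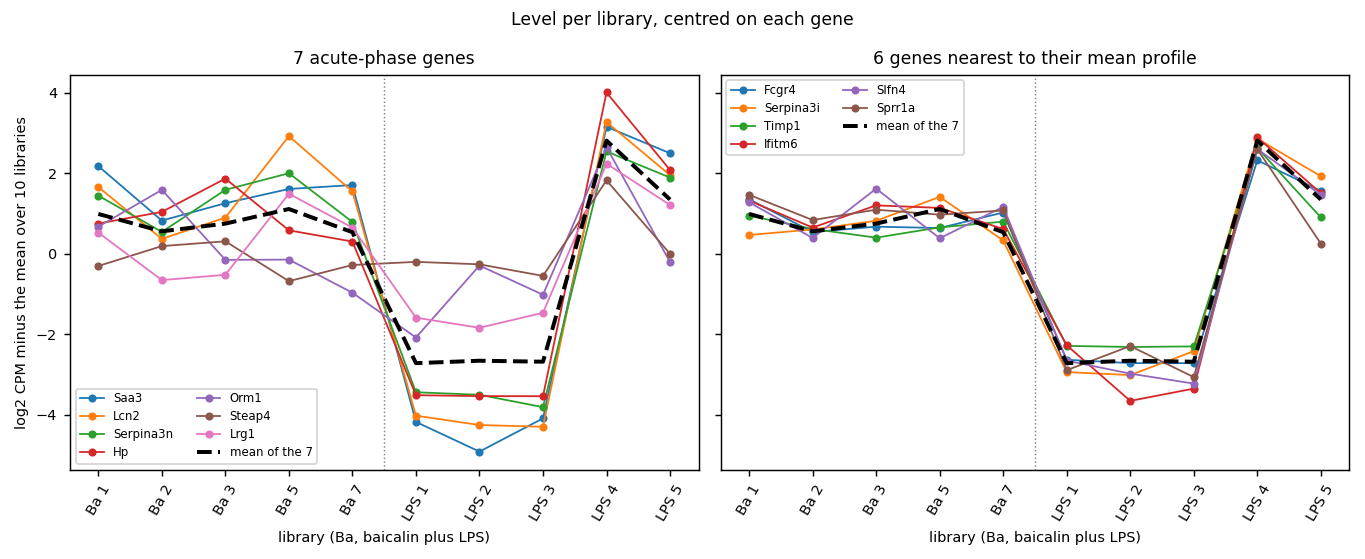
Log2 CPM of each gene minus its mean over 10 libraries, for the 7 acute-phase genes (left panel) and the 6 genes nearest to their mean (right panel), with that mean dashed. Ba is baicalin plus LPS. The mean of the 7 is lowest in LPS libraries 1, 2 and 3 and highest in LPS library 4, while Steap4 stands out in library 4 only.

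Baicalin plus LPS was compared with LPS to ask whether giving baicalin before the challenge altered cardiac transcripts. None of the 6 tested genes passed an edgeR adjusted p of 0.05, and 0.0% of the 16850 genes tested did. At an unadjusted p under 0.05 there were 1878 genes, 11.1% of those tested, and 0 of the 6. DESeq2 called 1.58% of all genes (0.682% higher and 0.902% lower with baicalin) and 0 of the 6, and limma-voom called 0.0% and 0. The groups did not overlap in 2.46% of all genes and in 0 of the 6.

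The edgeR fold changes came with wide errors. Saa3 averaged 123 ± 42.5 CPM with baicalin and 121 ± 169 CPM with LPS alone (SD, n = 5 each). Its log2 fold change was 0.03 ± 1.27 (SE). Lcn2 averaged 352 ± 260 CPM and 287 ± 441 CPM in the same order of groups, a log2 fold change of 0.30 ± 1.29. The averages of Serpina3n were 414 ± 165 CPM with baicalin and 314 ± 429 CPM with LPS alone (0.40 ± 1.10). Hp, Steap4 and Lrg1 had lower means with baicalin, none of them beyond the spread between libraries. Hp averaged 8.90 ± 4.23 CPM with baicalin and 18.1 ± 30.6 CPM with LPS alone (log2 fold change -1.02 ± 1.25). Steap4 averaged 44.1 ± 12.1 and 65.9 ± 57.6 CPM in these groups (-0.58 ± 0.43), and Lrg1 130 ± 79.8 and 145 ± 176 CPM (-0.16 ± 0.79).

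The LPS means were set largely by 1 library, so the size and sign of these differences depended on the summary used. LPS library 4 held 60.6% of the summed LPS-group CPM for Saa3, 70.5% for Lcn2, 59.5% for Serpina3n, 78.3% for Hp, 51.1% for Steap4 and 58.9% for Lrg1. The median of Saa3 was 125 CPM with baicalin and 2.37 CPM with LPS alone, a log2 ratio of 5.72. The same ratio of medians was 5.58 for Lcn2, 4.89 for Serpina3n, 4.40 for Hp, 1.99 for Lrg1 and -0.08 for Steap4. Limma-voom, which compares means of log2 values, gave 3.06 for Saa3, 2.98 for Lcn2, 2.55 for Serpina3n and 1.93 for Hp, with adjusted p values from 0.487 to 0.821 over the 6 genes. With quality weights, which count each library by how well it follows its group, limma-voom called 5 of the 6 higher with baicalin, against 9.45% of all genes called higher and 8.2% called lower, with a log2 fold change of 5.51 for Saa3 (adjusted p = 0.00348) and 1.72 for Lrg1 (adjusted p = 0.0280). Nothing is read from that count, since the contrast was in view when the genes were chosen.

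When LPS libraries 1, 2 and 3 were left out, all 6 fold changes were negative, from -0.87 for Serpina3n to -2.31 for Hp, and 0 of the 6 passed (edgeR adjusted p from 0.285 to 0.494). Those libraries were picked for their low levels, so removing them raises the LPS level by selection, leaves 2 LPS libraries and cannot show a direction for baicalin. Without LPS library 4, the fold changes were 1.05 for Saa3, 1.73 for Lcn2, 1.38 for Serpina3n, 0.84 for Hp, 0.13 for Steap4 and 0.80 for Lrg1, again with 0 passing.

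**Figure D3:**
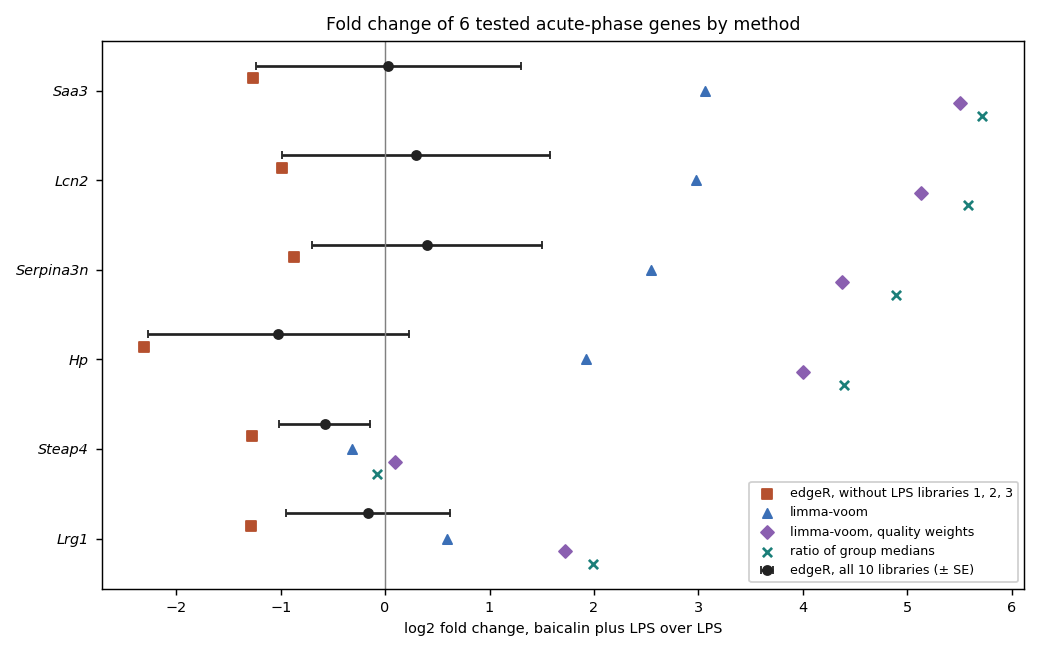
Log2 fold change of baicalin plus LPS over LPS for the 6 tested genes, as fitted by edgeR on 10 libraries (bars, SE), by edgeR without LPS libraries 1, 2 and 3, by limma-voom with and without quality weights, and as the ratio of group medians. For Saa3, Lcn2, Serpina3n and Hp the values run from below 0 without the 3 libraries to above 4 for the ratio of medians, while those of Steap4 stay between -1.28 and 0.10.

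Closely related copies of the 7 genes were mostly low in heart. Of 18 listed copies 11 were tested and 0 passed in edgeR, with 1 positive and 10 negative fold changes and a median of -0.42, beside a median of 0.00 and 8331 positive and 8519 negative over all tested genes. These signs depend on the summary used, since LPS library 4 was the highest for 10 of the 11, against 24.3% of all tested genes. With quality weights limma-voom called 5 of the 11, all higher with baicalin, against 9.45% of all genes called higher. Steap3, a ferrireductase of the Steap family, was the most abundant, with 22.6, 34.2, 34.1, 15.5 and 22.4 CPM in libraries 1, 2, 3, 5 and 7 of the baicalin group, against 27.2, 25.1, 26.6, 18.0 and 23.1 CPM in LPS libraries 1 to 5. Its log2 fold change was 0.10 ± 0.21 (edgeR adjusted p = 0.892), and neither Steap3 nor Steap2 (group medians of 4.13 CPM with baicalin and 4.23 CPM with LPS alone, -0.02 ± 0.31) had LPS libraries 1, 2 and 3 as its 3 lowest. Of the 6 Serpina3 copies tested, 5 had LPS libraries 1, 2 and 3 as their lowest, and Serpina3c did not, with at most 0.281 CPM there and 0.184 CPM in baicalin library 7. Serpina3f ranged from 1.41 to 4.60 CPM with baicalin, against 0.115 to 0.140 CPM in LPS libraries 1, 2 and 3 and 20.2 and 7.91 CPM in LPS libraries 4 and 5. Serpina3m had 0 counts in the 3 low libraries, and Serpina3i, Serpina3g and Serpina3h had at most 0.191, 0.334 and 0.211 CPM there. In all, 6 of the 11 copies tested had LPS libraries 1, 2 and 3 as their lowest. Serpina3n shared 50-base windows with Serpina3g, among others, so the counts of these copies are uncertain. Windows shared among the copies themselves were not searched, so the size of that uncertainty is not known.

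Other acute-phase genes were described as a list of 26, of which 20 were tested. None passed in edgeR or DESeq2, 14 fold changes were positive and 6 negative, and their median was 0.29. Among the smallest p values were those of Ptx3, a pattern-recognition pentraxin (-1.78 ± 0.98, adjusted p = 0.524), the protease trap A2m (1.56 ± 0.92, adjusted p = 0.556) and the LPS co-receptor Cd14 (0.70 ± 0.47, adjusted p = 0.608). Cd14 had 27.9, 17.8, 21.2, 10.2 and 14.3 CPM in libraries 1, 2, 3, 5 and 7 of the baicalin group, against 4.99, 6.27, 4.71, 23.5 and 16.9 CPM in LPS libraries 1 to 5. Like the 5 genes above, 11 of these 20 had their 3 lowest values in LPS libraries 1, 2 and 3. Without those libraries 18 of the 20 fold changes were negative, with the same limit of selection.

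Of 23 listed cytokines and receptors that induce the response 22 were tested, 9 with positive and 13 with negative fold changes, a median of -0.03, and 0 passed in edgeR or DESeq2. LPS libraries 1, 2 and 3 were the lowest for 8 of the 22, and LPS library 4 the highest for 11. Osmr, the oncostatin M receptor, chosen after its values were seen, was one of both, with 61.9, 42.0, 51.4, 43.6 and 61.1 CPM in baicalin libraries 1, 2, 3, 5 and 7, against 30.7, 33.5, 29.7, 143 and 84.2 CPM in LPS libraries 1 to 5. The leukaemia inhibitory factor receptor Lifr (-0.40 ± 0.25, adjusted p = 0.577), the LPS receptor Tlr4 (-0.24 ± 0.15, adjusted p = 0.580), the cytokine Lif (-0.42 ± 0.41, adjusted p = 0.739) and Il6, the main inducer in liver (-0.59 ± 0.60, adjusted p = 0.752), had the smallest p values. Il6 did not exceed 1.16 CPM with baicalin or 1.86 CPM with LPS alone, and LPS libraries 1, 2 and 3 were not its lowest, since library 2 had 0.705 CPM, above 4 of the 5 baicalin libraries. Lifr ran against the acute-phase genes. It had 46.9, 42.1, 34.5, 40.5 and 47.5 CPM in libraries 1, 2, 3, 5 and 7 of the baicalin group, against 68.0, 64.6, 75.9, 26.1 and 43.8 CPM in LPS libraries 1 to 5, the highest values being those of the 3 low acute-phase libraries.

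Kinases and transcription factors of the response gave 0 edgeR and 0 DESeq2 calls among the 19 tested of 20 listed, with 5 positive and 14 negative fold changes and a median of -0.09. The cytokine receptor kinase Jak1 had the smallest p (-0.46 ± 0.14, adjusted p = 0.301), with 115, 109, 119, 88.7 and 98.4 CPM in libraries 1, 2, 3, 5 and 7 of the baicalin group, against 168, 151, 169, 133 and 109 CPM in LPS libraries 1 to 5. The next were the NF-kB subunit Rel (0.33 ± 0.14, adjusted p = 0.411), the glucocorticoid-induced Tsc22d3 (-0.34 ± 0.19, adjusted p = 0.549) and Cebpd, a C/EBP factor (-0.36 ± 0.21, adjusted p = 0.554). Stat3 and its feedback inhibitor Socs3, chosen after their values were seen, repeated the acute-phase split. Stat3 ranged from 168 to 237 CPM with baicalin, against 116, 122, 125, 437 and 272 CPM in LPS libraries 1 to 5. Socs3 ranged from 10.8 to 20.3 CPM with baicalin, against 3.25, 4.84, 3.60, 33.0 and 37.2 CPM in the LPS libraries. Of the 19 genes, 7 had their 3 lowest values in LPS libraries 1, 2 and 3 and 2 had their 3 highest there.

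Binding partners and targets of the 7 products held 1 gene that DESeq2 called, against 1.58% of all genes, and 0 that edgeR called, among 18 tested of 20 listed. LPS libraries 1, 2 and 3 were the lowest for 7 of the 18. The list had 10 positive and 8 negative fold changes and a median of 0.07. The called gene was Tlr2, a receptor for bacterial lipoproteins that serum amyloid A can also engage. It had 12.1, 15.5, 19.8, 4.51 and 7.68 CPM in libraries 1, 2, 3, 5 and 7 of the baicalin group, against 2.39, 2.92, 2.28, 6.36 and 7.02 CPM in LPS libraries 1 to 5, a log2 fold change of 1.51 ± 0.45 (edgeR adjusted p = 0.301, DESeq2 adjusted p = 0.0391). Baicalin libraries 1, 2, 3 and 7 lay above all LPS libraries, and library 5 lay within their range. LPS libraries 1, 2 and 3 were its lowest. The transferrin receptor Tfrc (0.87 ± 0.26, adjusted p = 0.301), the TGF-beta co-receptor Eng (-0.23 ± 0.10, adjusted p = 0.449) and Lrp2, an endocytic receptor for lipocalin 2 (1.06 ± 0.51, adjusted p = 0.471), followed. Tfrc had 22.4, 47.0, 37.7, 18.0 and 29.7 CPM with baicalin, against 16.4, 17.6, 21.3, 18.7 and 10.9 CPM with LPS alone.

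**Figure D4:**
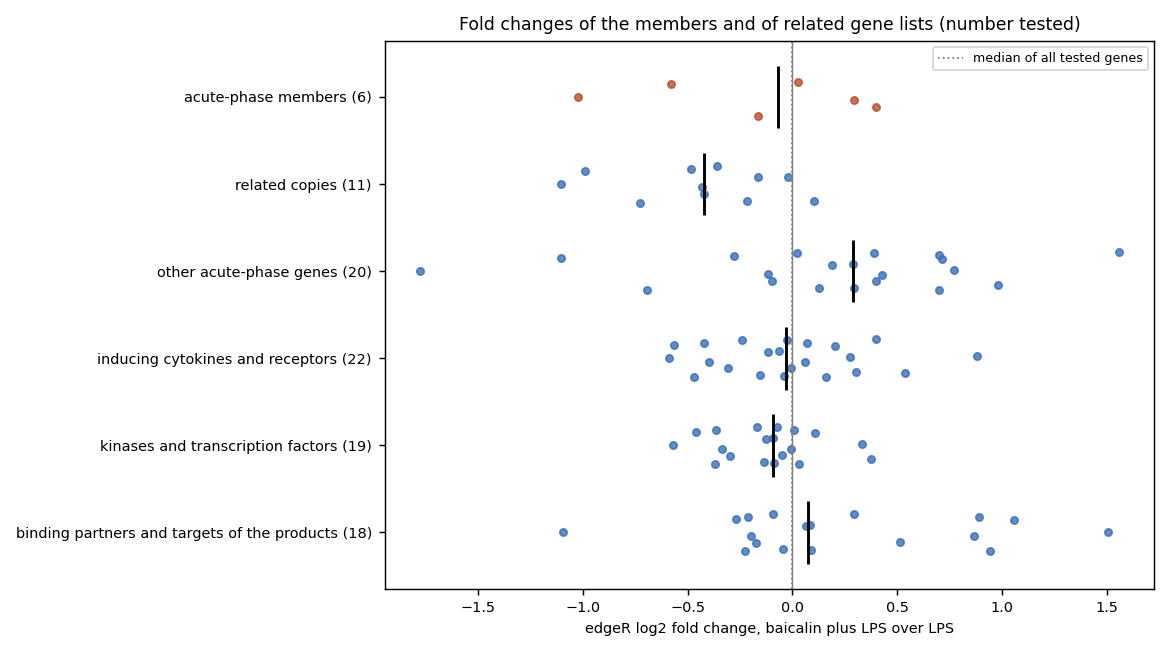
EdgeR log2 fold change of baicalin plus LPS over LPS for each tested gene of the acute-phase set (6) and of 5 related lists (11, 20, 22, 19 and 18 genes). Black bars are list medians, from -0.42 for the related copies to 0.29 for other acute-phase genes, and the dotted line is the median of all tested genes.

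The genes most like the set were sought among 13211 genes with a mean of at least 1 CPM, by the root-mean-square difference between their centred log2 CPM and the mean profile of the 7 over 10 libraries. The nearest were Fcgr4, an activating Fc receptor of myeloid cells (0.30 log2 units), the copy Serpina3i (0.32), the metalloproteinase inhibitor Timp1 (0.33), Ifitm6 (0.45), Slfn4 (0.47) and the small proline-rich gene Sprr1a (0.48). Timp1 had 20.3, 16.1, 13.9, 16.6 and 18.3 CPM in libraries 1, 2, 3, 5 and 7 of the baicalin group, against 2.12, 2.08, 2.11, 65.4 and 19.7 CPM in LPS libraries 1 to 5. All 6 had LPS libraries 1, 2 and 3 as their lowest and library 4 as their highest, as 5.22% of tested genes did. They were picked for nearness to a mean profile with that same split, so nothing is read from this count. Likeness over 10 libraries was dominated by that split: over the other 7 libraries only Ifitm6 stayed among the nearest 6. The 7 genes themselves lay farther from their mean profile, from 0.68 log2 units for Serpina3n to 1.59 for Steap4. Nearness is therefore to an average and not to any single member.

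Markers of some other cells moved with the split, and their part in it was not tested. Of the marker lists, only the neutrophil, macrophage and hepatocyte sums were lowest in LPS libraries 1, 2 and 3. Smooth muscle and pericyte markers summed to 864 to 957 CPM there and to 462 to 730 CPM in the other 7, with 2 of the 8 genes highest there. Endothelial sums there, 633 to 722 CPM, and fibroblast sums, 533 to 587 CPM, lay within the range of the other 7. In bulk tissue, fewer cells of a type and less RNA per cell cannot be told apart. The 11 neutrophil markers, among them S100a9 and Ngp, summed to 66.6, 50.7, 96.6, 36.8 and 38.3 CPM in libraries 1, 2, 3, 5 and 7 of the baicalin group, against 5.92, 2.77, 2.26, 229 and 49.5 CPM in LPS libraries 1 to 5. Of the 9 neutrophil markers tested, 8 had LPS libraries 1, 2 and 3 as their lowest. Neutrophil granules are a known source of lipocalin 2 and haptoglobin. Within the baicalin group the marker sum was highest in library 3, which was also highest for Hp, and lowest in library 5, which was highest for Lcn2. S100a9 and Ngp were highest in LPS library 4, at 85.4 and 53.6 CPM, as were 7 of the 9 tested markers in all. Csf3r was not, with 24.8 CPM in baicalin library 3 and 16.4 CPM in LPS library 4.

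The 9 macrophage markers summed to 748, 1086, 1220, 278 and 381 CPM with baicalin (libraries 1, 2, 3, 5 and 7), against 190, 166, 179, 463 and 445 CPM in LPS libraries 1 to 5, again lowest in LPS libraries 1, 2 and 3. Of the 9 markers, 6 had those 3 libraries as their lowest. Lyz2 made up the largest part of the sum in every library. Heart muscle markers ran the other way, with sums of 54587 to 62728 CPM in those 3 libraries and 30383 to 45362 CPM in the other 7. Myh6, the main cardiac myosin heavy chain, made up the largest part of these sums, and 4 of the 8 markers had LPS libraries 1, 2 and 3 as their highest. Hepatocyte markers, of the cells that make most plasma acute-phase proteins, summed to between 5.51 and 19.2 CPM with baicalin and between 4.13 and 12.2 CPM with LPS alone. That sum was also lowest in LPS libraries 1, 2 and 3, at 4.13 to 4.51 CPM. It came mostly from Ahsg, which had 2.76 to 3.25 CPM in those 3 libraries and 4.66 to 13.5 CPM in the other 7, and from Cyp2e1. Albumin (Alb) did not exceed 0.750 CPM, Apoa1 0.0803 CPM and Apob 0.0702 CPM in any library. The highest Alb value was that of LPS library 4, on 36 counts, and the next was 0.140 CPM in LPS library 1. Adipocyte markers summed to 15.9 and 15.0 CPM in baicalin libraries 2 and 3 and to between 0.449 and 5.86 CPM in the other 8 libraries. Erythroid markers summed to 486 CPM in LPS library 4, the library highest in all 7 acute-phase genes, and to between 13.2 and 201 CPM in the other 9. The lowest sum was that of LPS library 5. LPS libraries 1, 2 and 3 had 102 to 201 CPM, above the 21.5 to 72.6 CPM with baicalin. Among all marker lists DESeq2 called 3 genes and edgeR 0, beside 1.58% and 0.0% of all genes tested. They were 1 of 9 macrophage, 1 of 8 endothelial and 1 of 5 erythroid markers tested. The macrophage lysozyme Lyz2 was higher with baicalin (log2 fold change 1.88 ± 0.50, DESeq2 adjusted p = 0.0115). LPS libraries 1, 2 and 3 were its lowest, at 62.9 to 84.1 CPM, against at least 146 CPM in the other 7. The endothelial receptor Tie1 (-0.55 ± 0.12, DESeq2 adjusted p = 0.0115) and the globin Hbb-bs (-2.02 ± 0.62, DESeq2 adjusted p = 0.0301) were lower. Hbb-bs had 64.3, 112, 74.5, 166 and 7.24 CPM in LPS libraries 1 to 5, against 11.6 to 37.4 CPM with baicalin. Its lowest value of all was thus in LPS library 5. The fold changes and SE of these 3 genes are from edgeR. With quality weights limma-voom called 9 of 9 neutrophil, 7 of 9 macrophage and 4 of 8 cardiomyocyte markers tested, against 17.6% of all genes. In each of the other marker lists it called at most 3, so calls among the markers depended on the method.

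**Figure D5:**
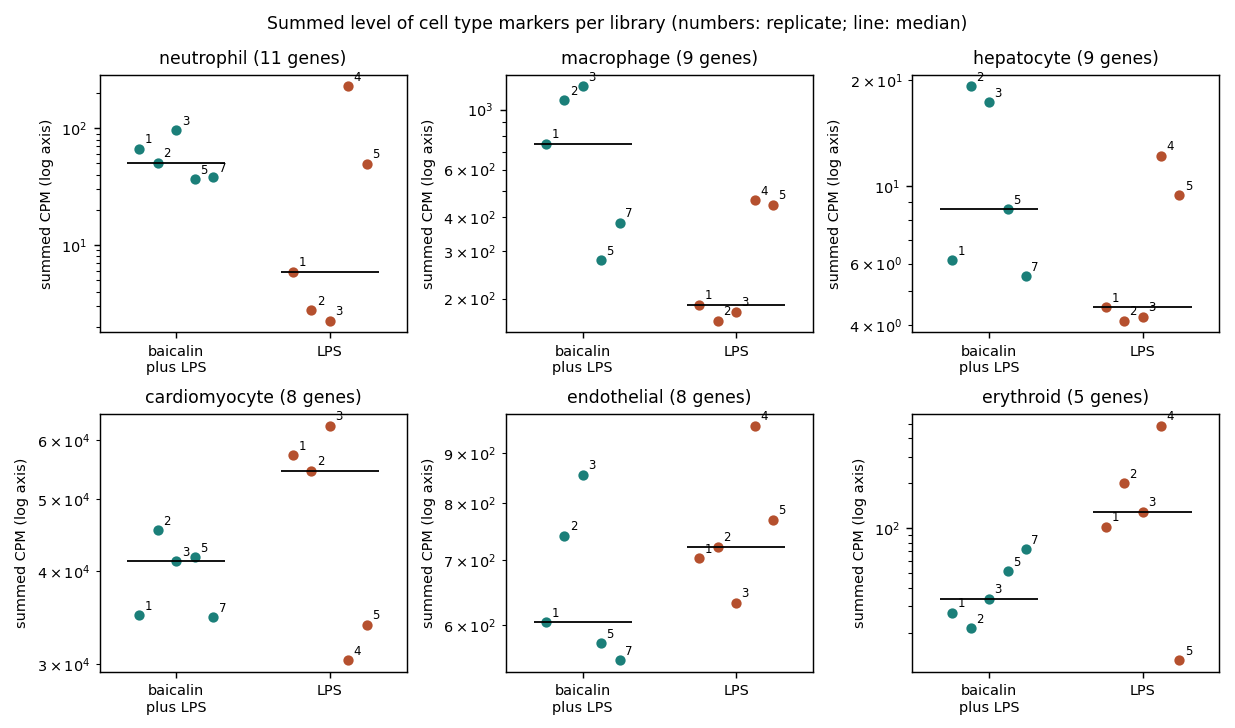
Summed TMM-scaled CPM (log axes) of 6 cell type marker lists, in the baicalin plus LPS libraries, left, and the LPS libraries, right, with replicate numbers and the median of 5 as a line. Neutrophil and macrophage sums are lowest in LPS libraries 1, 2 and 3, where the cardiomyocyte sums are highest.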

How the data were processed

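The count table holds whole-number counts per Ensembl gene ID as deposited by the authors, with no normalization, and the FPKM table holds FPKM values as deposited by the authors, which are the counts divided by a fixed gene length and by library size (largest relative deviation 4.4e-13). The genome build is mm10, per the submitters' processing notes; which aligner, counter and annotation were used, and whether strand was, is not stated. Between 61.6% and 64.7% of counts from 1 to 50 in a library were even, so a count is not 1 independently counted fragment. Symbols (GENCODE M21) matched 31076 of 31655 IDs.

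EdgeR 4.0.16 (R 4.3.3) supplied the main test, a robust quasi-likelihood fit on TMM-normalized counts with edgeR's filter by group (16850 genes kept) and Benjamini-Hochberg adjustment over all genes tested, two-sided, threshold 0.05. Standard errors come from the F statistic. CPM are TMM-scaled; log2 CPM carry a prior count of 2. DESeq2 1.42.0, limma 3.58.1 (voom with and without quality weights, and log2(FPKM + 1) or log2(FPKM + 0.1)), other factors and filters, left-out libraries and a replicate block were alternatives. The fit was tested on simulated data.

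Members and lists were chosen with earlier results of these data known. Named are all 7 members, up to 4 genes of smallest p per list, related copies with a mean of at least 1 CPM, the 6 nearest genes and up to 3 abundant markers per list; Stat3, Socs3, Osmr, Serpina3c, Tie1, Alb, Apoa1 and Apob were added after their values were seen. One gene that the rule names is not reported here. All pairs of libraries within a group differed by more than sampling noise (smallest chi-square per degree of freedom 15.2). Pairs across the groups were not compared in this way.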

Additional observations from a re-analysis of the deposited data

Results flagged for a closer look

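Single libraries stood far from the other 4 of their group, by Dixon's criterion, in 10 of 72 gene-and-group sets of 5. Chance gives about 1 in 20 for normally distributed values only. The CPM were used without a log transform, and their distribution was not tested, so the rate here is not known. In 7 of the 10 the library was LPS library 4. The genes were chosen with these values in view, some for a profile highest in that library, so neither the number nor its place is evidence. Among the acute-phase genes these were Hp with 71.0 CPM, Orm1 with 0.896 CPM and Steap4 with 168 CPM. The other 4 were Serpina3m with 9.42 CPM, Ptx3 with 8.84 CPM, Timp1 with 65.4 CPM and Sprr1a with 13.4 CPM. Saa3, Lcn2, Serpina3n and Lrg1 were not set apart in this way, because LPS library 5 was also high. The remaining 3 were Tlr4 with 23.4 CPM in baicalin plus LPS library 1, Il6 with 1.16 CPM in baicalin plus LPS library 2, and Eng with 193 CPM in LPS library 5, the lowest of its group.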

How the results depend on the processing

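No acute-phase gene was called by edgeR under any other scaling, filter or left-out library, nor by DESeq2, limma-voom or limma on log2 FPKM. With quality weights limma-voom called 5 of them, 38 genes of the related lists and 2974 genes in all; DESeq2 called 1 gene of the related lists and 267 genes in all, and edgeR with no low-count filter 2 in all. The calls with quality weights turned the sign of Hp (4.002), Lrg1 (1.72), Serpina3f (3.89), Serpina3m (5.92), Serpina3g (2.23), Serpina3i (3.25), Timp1 (2.77) and Ifitm6 (3.85), log2 fold changes that were below 0 but uncalled in edgeR. Leaving out 1 library at a time moved the log2 fold change of Lcn2 between -0.24 and 1.73 and that of Hp between -1.35 and 0.84; LPS library 4 gave the highest value of each. Over nuclear genes only, the mean share of counts taken by the 7 genes was 0.183% with baicalin and 0.154% with LPS alone. Over all genes but without LPS library 4, the share was 0.0459% with LPS alone, against 0.103% with it. Replicate numbers 1, 2, 3 and 5 occur in both groups. Correlations of same-numbered deviations ran from -0.10 to 0.08, within the -0.17 to 0.15 of the other pairs. So few correlations cannot show whether the libraries were paired. With the replicate block 0 genes were called, and the log2 fold changes of Saa3 and Lcn2 were 4.75 and 4.32. LPS library 4 and baicalin plus LPS library 7 have no partner of the same number, so they do not enter that contrast. It compares libraries 1, 2, 3 and 5 of each group, without the highest LPS library. Of the 6 nearest genes 1 was shared when 7 libraries were used. Depth limits statements on Orm1 and on Hp in LPS libraries 1, 2 and 3.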
